A study of Mus musculus with 12 samples.

Results

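The genes described here build the contractile machinery of muscle or serve the fusion of myoblasts. A list of 44 such genes was taken by symbol. It held 6 myosin heavy chains, 4 light chains, 7 troponins, 3 tropomyosins and 8 giant, M-band or myosin-binding proteins. It also held 7 genes of the Z-disc and intermediate filaments, 4 factors of thin filament assembly and 2 of myosin assembly. The others were muscle creatine kinase and the fusion and adhesion genes Mymk and Cdh15. Of the 44 genes, 39 had at least 1 read, out of 38481 genes summed, and 23 had enough reads to be tested, out of 13247 genes tested. The cells were C2C12, an established mouse myoblast line, kept in a medium with serum throughout. They had been given an siRNA against Crebl2, whose product resembles the bZIP factor CREB, or as a control one against Renilla Luciferase (Luc). After 3 days of knockdown, 20 nM of the mTOR inhibitor rapamycin or its vehicle ethanol was given for 12 hours. The 4 groups, with 3 libraries each, were thus Crebl2 siRNA in rapamycin, Crebl2 siRNA in ethanol, Luc siRNA in rapamycin and Luc siRNA in ethanol. A single siRNA sequence against Crebl2 entered these libraries, per the labels.

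In a sarcomere, myosin thick filaments pull on actin thin filaments, which carry tropomyosin and the troponin complex as a calcium switch. Titin spans from the Z-disc to the M-band, nebulin runs along the thin filament, and leiomodins and muscle kelch proteins help the thin filament to grow and last. Myoblasts first withdraw from the cell cycle, then switch on these genes under myogenic factors and MEF2, and fuse through the membrane proteins myomaker and myomerger; mTOR signalling is known to take part in this differentiation.

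Library totals ran from 33404087 to 42891015 counts. Crebl2 stood at 10.7, 8.97 and 9.49 CPM (its read count per 1e6 reads after TMM scaling) with its siRNA and at 40.0, 36.4 and 36.3 CPM under Luc siRNA in rapamycin. In ethanol it stood at 4.87, 7.41 and 6.02 CPM with its siRNA and at 23.8, 25.3 and 26.2 CPM under Luc siRNA, so the groups did not overlap and the labels held. Crebl2 itself was higher in rapamycin than in ethanol, by edgeR's quasi-likelihood test. The log2 change was 0.68 with its siRNA (SE 0.12, edgeR adjusted p = 0.0002) and 0.58 under Luc siRNA (SE 0.10, edgeR adjusted p = 0.00019). All 8 myoblast markers chosen were above 1 CPM in every library, among them Myod1 at 175 to 279.9 CPM and Myf5 at 70.7 to 94.9 CPM; Des and Cdh15 belong to both that list and the 44 genes. Of 6 cardiac markers, 4 stayed below 1 CPM in every library (Myl2, Myl7, Myh6 and Nppa). The others did not: Nkx2-5 stood at 10.4 to 17.6 CPM and Tnni3 at 0.372 to 1.12 CPM. No source used here states that the 3 libraries of a group came from separate cultures, so the p-values reflect how these libraries vary, and that variation may be technical. A change in bulk RNA cannot tell fewer differentiating cells apart from less of a transcript in each cell.

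How much of each gene the counts could see differed widely. Reads had been counted per transcript, and 9536 of the 9603 transcripts that share every exonic base with another were at 0 in all libraries. The other 67 held 0.0327% of all reads, and the 56 such transcripts of the 44 genes held 0. The share of a gene's exonic bases that belong to 1 listed transcript is given here as its countable share. It was below 10% for 11 of the 21 untested genes and for 2 of the 23 tested ones, titin (Ttn, 7.96%) and Tpm2 (8.69%). It was above 90% for 13 of the tested genes and for 3 untested ones, Myh8, Mybpc2 and Tcap. The heavy chains Myh1, Myh2, Myh3 and Myh4 had countable shares of 1.07% to 1.73%, so their near absence from the counts says little about their RNA. Myh8, the perinatal heavy chain, was 92.6% countable and had 18 reads in all, 16 of them in Luc siRNA in ethanol.

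**Figure D1:**
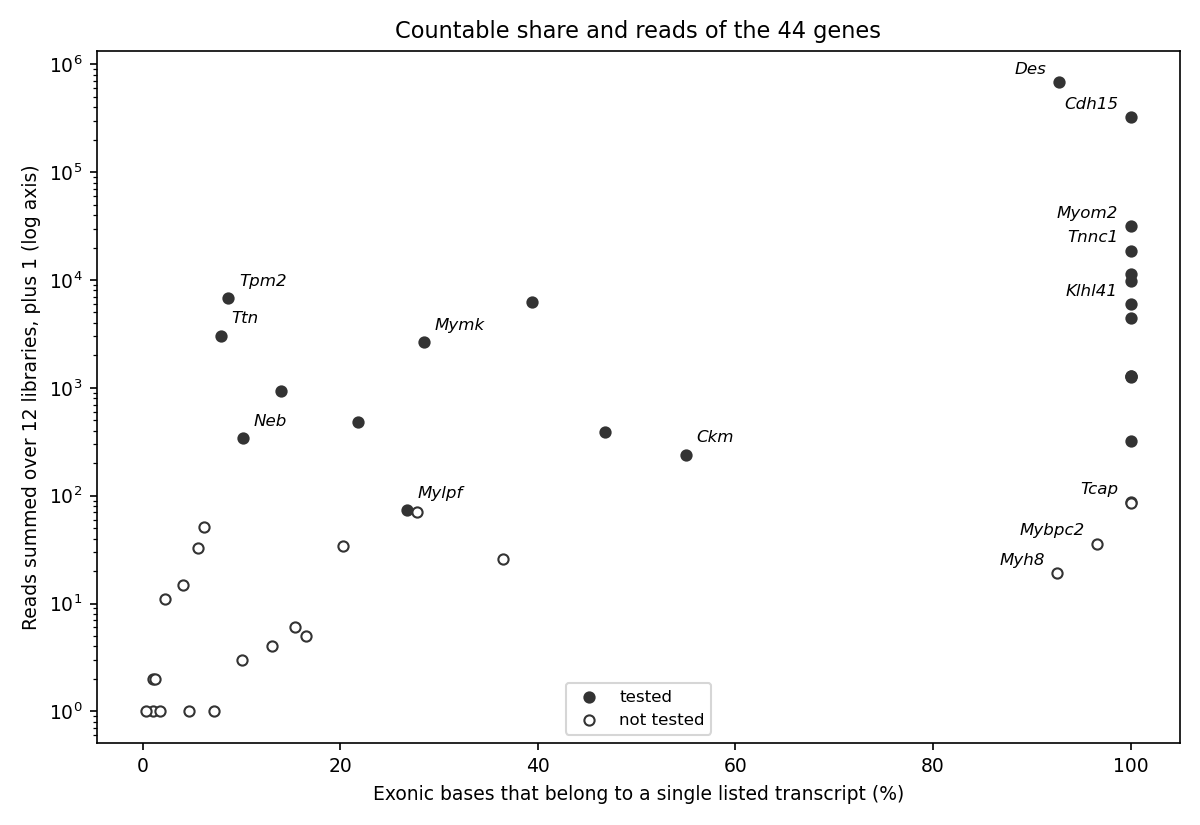
Countable share of each of the 44 genes (x axis, percent of exonic bases that belong to a single listed transcript) against its reads summed over the 12 libraries plus 1 (y axis, log scale). Filled points were tested and open points were not; most untested genes lie at the left with a low countable share, while Myh8, Mybpc2 and Tcap have few reads at a share above 90%.

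The tested genes covered a wide range of levels. Per kilobase of countable sequence, and among genes with more than 90% countable bases, desmin (Des), the intermediate filament of muscle, was the highest with a mean of 539 CPM per kilobase over the 12 libraries. M-cadherin (Cdh15) followed with 220.5, then slow troponin C (Tnnc1) with 56.3, the light chain Myl6b with 24.7 and M-protein (Myom2) with 13.4 CPM per kilobase. Des and Cdh15 together made up 84.1% to 94.3% of the summed CPM of the 44 genes. Without these 2 genes, the sum was 131 to 140.2 CPM in cells with Crebl2 siRNA and rapamycin, 160.4 to 178 CPM in cells with Crebl2 siRNA and ethanol, 189.6 to 220.3 CPM in cells with Luc siRNA and rapamycin and 396 to 450.4 CPM in cells with Luc siRNA and ethanol. No library of one group reached into another in that sum, and every library with either agent lay below every library with neither. The 44-gene sum was 2271 to 2382 CPM with Crebl2 siRNA and rapamycin and 2338 to 2687 CPM with Crebl2 siRNA and ethanol. It was 2082 to 2319 CPM with Luc siRNA and rapamycin and 2738 to 3024 CPM with Luc siRNA and ethanol. There, Crebl2 siRNA in rapamycin overlapped with Crebl2 siRNA in ethanol and with Luc siRNA in rapamycin, so the steps hold only without Des and Cdh15. By group means, 17 of the 23 tested genes were highest in cells with Luc siRNA and ethanol and 12 were lowest in cells with Crebl2 siRNA and rapamycin. For 11 genes the order was the same as for the sum without Des and Cdh15: Myl1, Neb, Myom2, Myom3, Myoz2, Klhl40, Klhl41, Lmod2, Lmod3, Ckm and Mymk. Myl1, Mylpf, Neb, Myoz2 and Ckm, all among the 17, had enough reads in every library only of groups under Luc siRNA. They were tested through groups in which they were high, so these counts are no support for a shared order. The share of all tested genes with such an order was not counted.

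**Figure D2:**
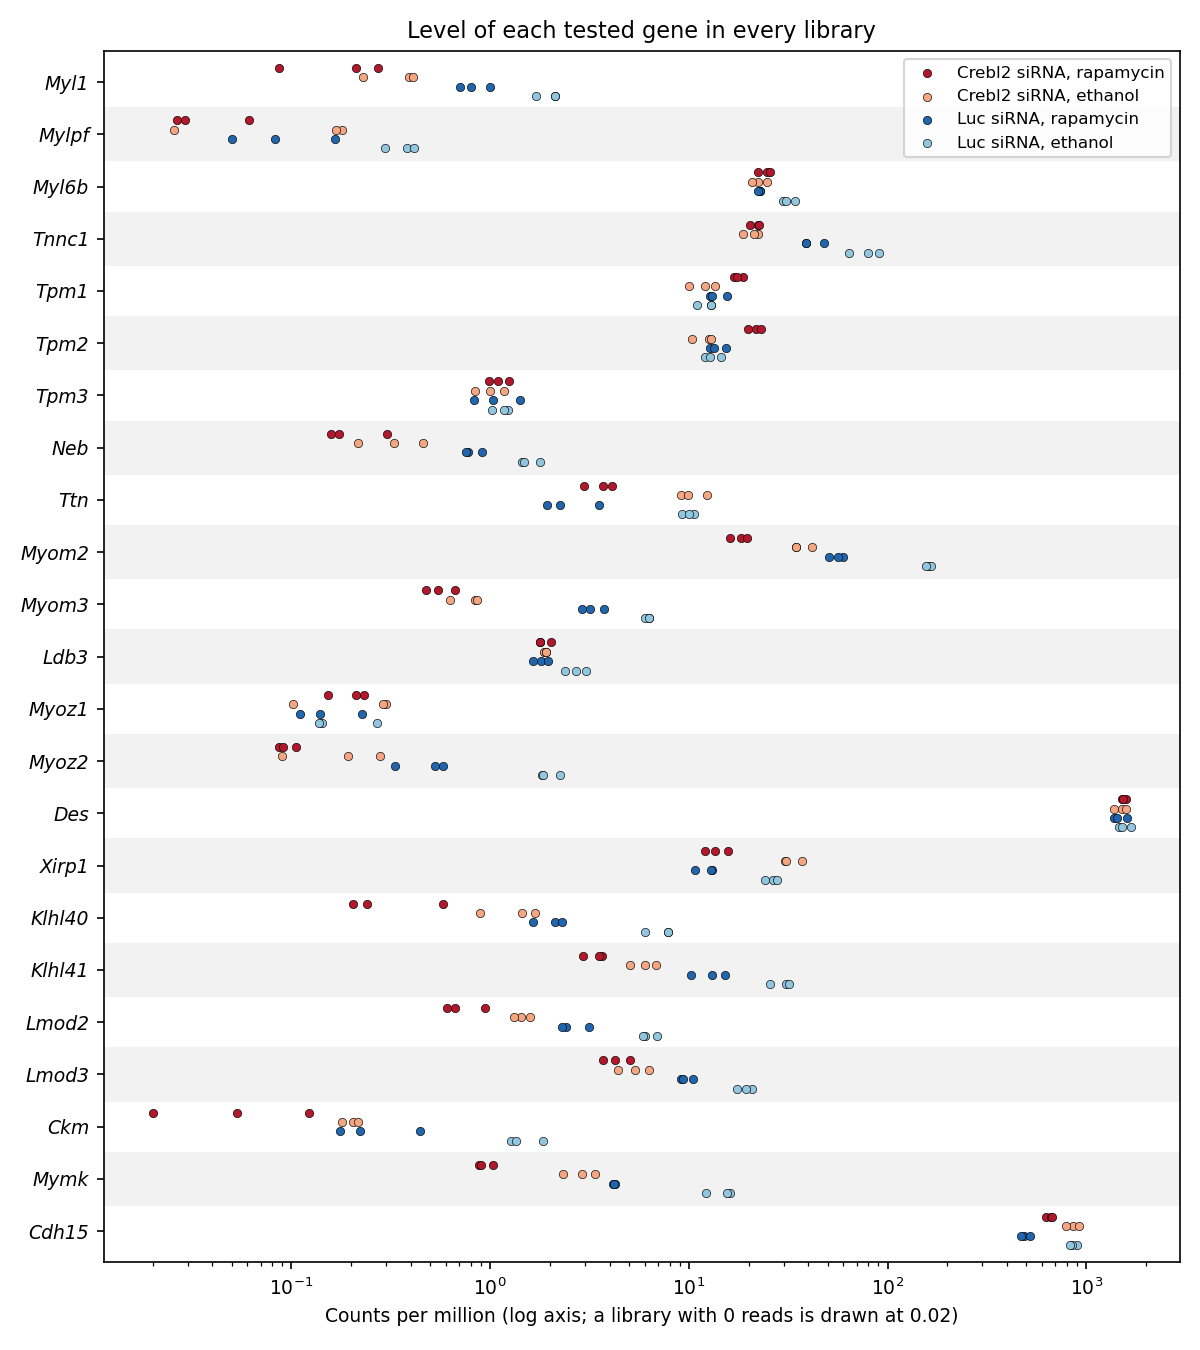
CPM (x axis, log scale) of the 23 tested genes in each of the 12 libraries, with 1 point per library and 1 colour per group; a library without a read is drawn at 0.02 CPM. For genes such as Myom2, Klhl41 and Mymk the 4 groups form separate steps, while Des and Tpm3 show no separation.

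With Crebl2 siRNA, genes of thin filament assembly, the M-band and myomaker were lower both in rapamycin and in ethanol, while desmin and titin were not called. In rapamycin, 12 of the 23 tested genes were lower and 3 were higher than under Luc siRNA, by edgeR's quasi-likelihood test at an adjusted p under 0.05; of all tested genes, 16.8% were called lower and 16.3% higher. In ethanol, 15 were lower and 1 was higher, where 17.0% of all tested genes were called lower and 21.4% higher. The median log2 fold change of the 23 genes was −1.16 in rapamycin and −1.84 in ethanol, against −0.01 and 0.01 over all tested genes. Lower in both were Myl1, Tnnc1, Neb, Myom2, Myom3, Myoz2, Klhl40, Klhl41, Lmod2, Lmod3, Ckm and Mymk. Mylpf and Ckm had passed the count filter in all 3 libraries of Luc siRNA in ethanol alone, and Myl1, Neb and Myoz2 in all 3 libraries of Luc siRNA groups alone, so these 5 entered the test through groups in which they were high. The counts and medians above hold them and are no support for a shared direction. Among the 17 tested genes whose mean reached 1 CPM, a cut chosen after the data had been seen that leaves out these 5 and Myoz1, 8 were lower and 3 higher in rapamycin with a median of 0.03. There 10 were lower and 1 was higher in ethanol, with a median of −0.51. Of all genes above that cut, 20.2% were called lower and 20.4% higher in rapamycin, and 19.8% lower and 27.1% higher in ethanol. The cut is a mean over the 12 libraries, and Myom3 reached it only through Luc siRNA. Its group means were 0.564 and 0.778 CPM under Crebl2 siRNA and 3.27 and 6.20 CPM under Luc siRNA, in rapamycin and ethanol. Klhl40, Lmod2 and Mymk had means of 0.340, 0.739 and 0.937 CPM with Crebl2 siRNA in rapamycin. The counts and medians of the 17 genes are thus no support for a shared direction either.

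**Figure D3:**
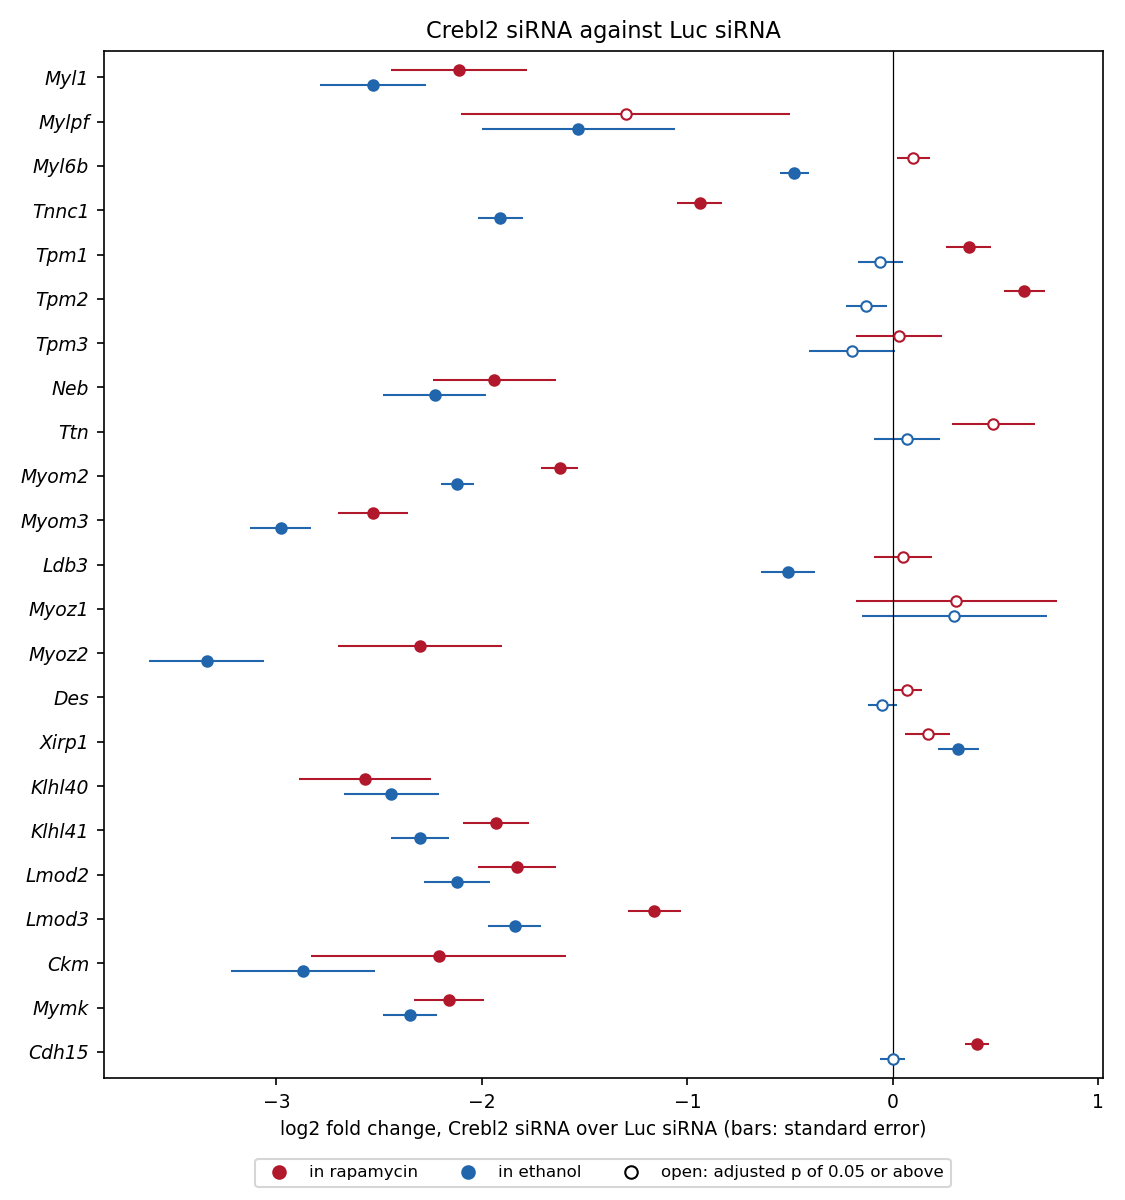
log2 fold change of Crebl2 siRNA over Luc siRNA (x axis; bars are standard errors) for the 23 tested genes, in rapamycin (red) and in ethanol (blue), with open points where the edgeR adjusted p was 0.05 or above. The 12 genes lower in both lie between −0.94 and −3.34, while the tropomyosins, Ttn, Des, Xirp1 and Cdh15 lie at 0 or to its right in rapamycin.

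With both siRNAs, rapamycin lowered myomaker, Myom2 and the thin filament genes Klhl40, Klhl41 and Lmod2, and also titin, Xirp1 and Cdh15, which were not called lower with the siRNA. With Crebl2 siRNA, 9 of the 23 tested genes were lower in rapamycin than in ethanol and 2 were higher, where 25.6% of all tested genes were called lower and 19.7% higher. With Luc siRNA, 18 were lower and 0 higher, where 21.6% of all tested genes were called lower and 19.5% higher. The median of the 23 genes was −0.66 under Crebl2 siRNA and −0.99 under Luc siRNA, against −0.01 and 0.02 over all tested genes. Mylpf and Ckm, which passed the filter in Luc siRNA in ethanol alone, are among the 18, so that count and its median are no support either. At a mean of at least 1 CPM, 8 genes were lower and 2 higher under Crebl2 siRNA (32.2% and 23.3% of all such genes), and 13 were lower and 0 higher under Luc siRNA (26.7% and 23.3%). That cut has the limit given above, since Myom3 reached it only through Luc siRNA. Lower with both siRNAs were Ttn, Myom2, Xirp1, Klhl40, Klhl41, Lmod2, Ckm, Mymk and Cdh15. Lower under Luc siRNA and not called under Crebl2 siRNA were Myl1, Mylpf, Myl6b, Tnnc1, Neb, Myom3, Ldb3, Myoz2 and Lmod3. Of these 9 genes, Tnnc1 and Myl6b had a called difference between the siRNAs by the interaction of the fit, and the other 7 did not (edgeR adjusted p = 0.088 to 0.96). The siRNA comparison in ethanol and the rapamycin comparison under Luc siRNA share their control libraries.

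**Figure D4:**
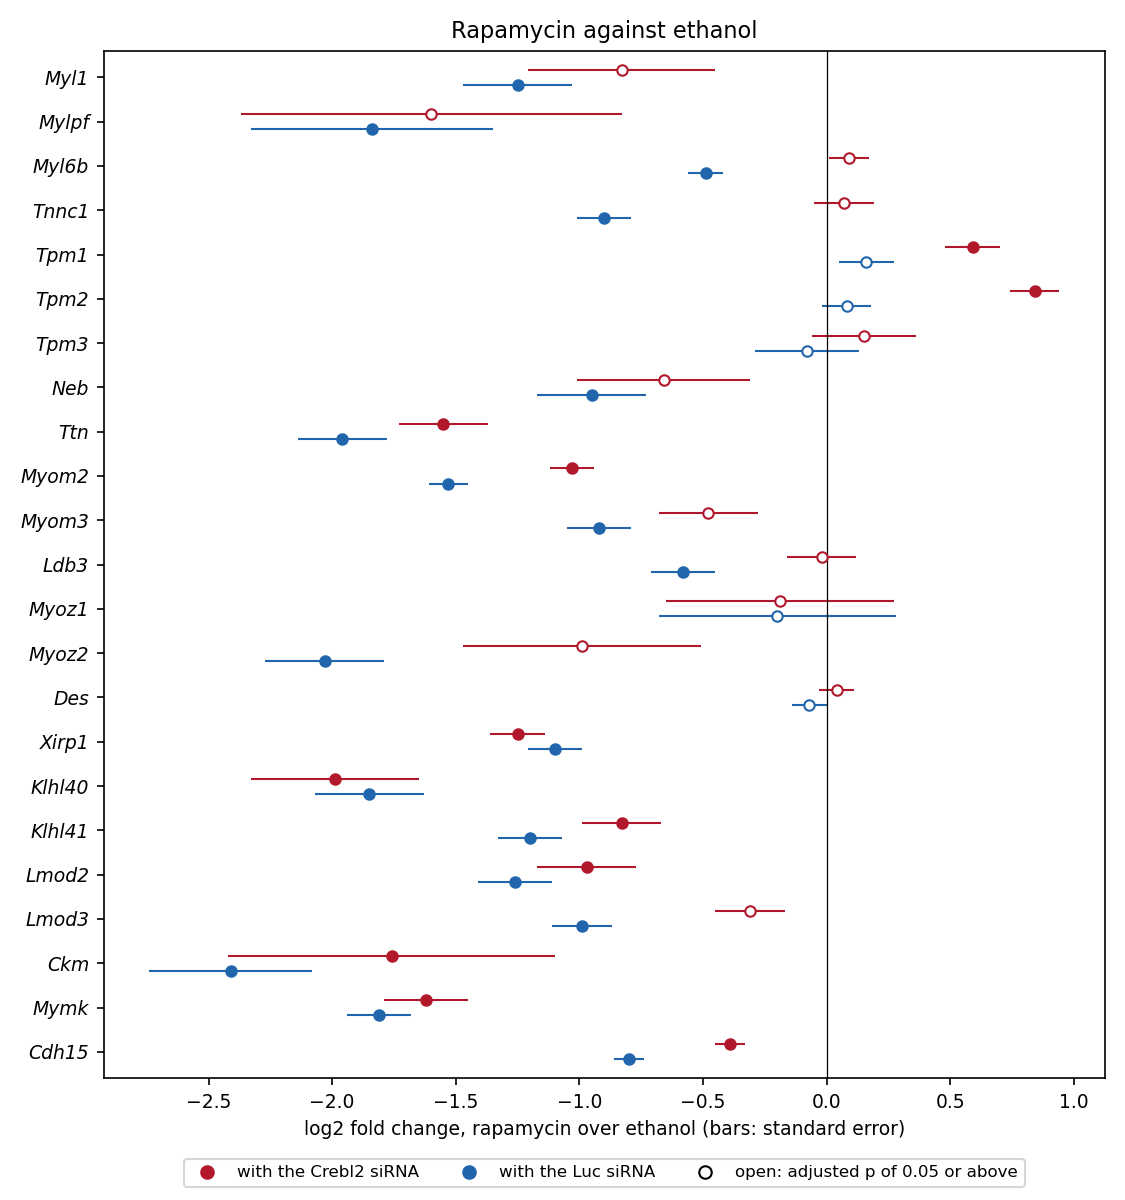
log2 fold change of rapamycin over ethanol (x axis; bars are standard errors) for the 23 tested genes, under Crebl2 siRNA (red) and Luc siRNA (blue), with open points where the edgeR adjusted p was 0.05 or above. Klhl40, Mymk and Ttn lie left of −1.5 with both siRNAs, while Tpm1 and Tpm2 lie to the right of 0 under Crebl2 siRNA.

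All 4 genes of thin filament assembly were lower under Crebl2 siRNA in rapamycin and in ethanol. Klhl41 encodes a kelch protein that stabilises nebulin. In rapamycin, Klhl41 stood at 3.64, 2.93 and 3.53 CPM under Crebl2 siRNA and at 15.2, 10.2 and 13.1 CPM under Luc siRNA. In ethanol, Klhl41 stood at 5.07, 6.03 and 6.83 CPM under Crebl2 siRNA and at 30.9, 31.9 and 25.7 CPM under Luc siRNA. No group overlapped with another. The siRNA difference was 3.80-fold in rapamycin (log2 fold change of −1.93 with an SE of 0.16 and an edgeR adjusted p = 2.5e-07) and 4.93-fold in ethanol (−2.30, SE 0.14, edgeR adjusted p = 1.3e-08). Rapamycin lowered it 1.78-fold under Crebl2 siRNA (−0.83, SE 0.16, edgeR adjusted p = 0.00065) and 2.30-fold under Luc siRNA (−1.20, SE 0.13, edgeR adjusted p = 2.7e-06). Klhl40, whose product stabilises nebulin and leiomodin 3, was rarer. In rapamycin, Klhl40 stood at 0.239, 0.203 and 0.578 CPM under Crebl2 siRNA and at 2.11, 1.64 and 2.30 CPM under Luc siRNA. In ethanol, Klhl40 stood at 0.892, 1.44 and 1.68 CPM under Crebl2 siRNA and at 7.90, 7.85 and 6.05 CPM under Luc siRNA. Its highest library under Crebl2 siRNA in ethanol lay just above the lowest under Luc siRNA in rapamycin, and each pair compared was separate. The siRNA changes were −2.57 (SE 0.32, edgeR adjusted p = 2e-05) in rapamycin and −2.44 (SE 0.23, edgeR adjusted p = 9.7e-07) in ethanol. The rapamycin changes were −1.99 under Crebl2 siRNA and −1.85 under Luc siRNA (edgeR adjusted p = 0.00017 and 5.5e-06).

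The leiomodins, which nucleate and lengthen thin filaments, were both lower. In rapamycin, Lmod2 stood at 0.664, 0.609 and 0.943 CPM under Crebl2 siRNA and at 3.13, 2.42 and 2.30 CPM under Luc siRNA. In ethanol, Lmod2 stood at 1.43, 1.59 and 1.32 CPM under Crebl2 siRNA and at 6.94, 5.99 and 5.86 CPM under Luc siRNA. The 4 groups did not overlap. The siRNA lowered Lmod2 3.54-fold in rapamycin (−1.83, SE 0.19, edgeR adjusted p = 2.6e-06) and 4.34-fold in ethanol (−2.12, SE 0.16, edgeR adjusted p = 8.7e-08). Rapamycin lowered it 1.96-fold under Crebl2 siRNA (−0.97, SE 0.20, edgeR adjusted p = 0.00092) and 2.40-fold under Luc siRNA (−1.26, SE 0.15, edgeR adjusted p = 5e-06). Lmod3 is the leiomodin of skeletal muscle. In rapamycin, Lmod3 stood at 5.07, 3.68 and 4.23 CPM under Crebl2 siRNA and at 10.5, 9.15 and 9.40 CPM under Luc siRNA. In ethanol, Lmod3 stood at 4.41, 5.37 and 6.30 CPM under Crebl2 siRNA and at 20.7, 19.4 and 17.5 CPM under Luc siRNA. The groups under Crebl2 siRNA overlapped with each other and lay below both groups under Luc siRNA. Lmod3 was 2.23-fold lower with the siRNA in rapamycin (−1.16, SE 0.13, edgeR adjusted p = 9.4e-06) and 3.57-fold lower in ethanol (−1.84, SE 0.13, edgeR adjusted p = 4.2e-08). Rapamycin lowered it 1.98-fold under Luc siRNA (−0.99, SE 0.12, edgeR adjusted p = 8.1e-06). Its change under Crebl2 siRNA was not called (−0.31, SE 0.14, edgeR adjusted p = 0.088), but was without library 1 of Crebl2 siRNA in rapamycin (−0.41, edgeR adjusted p = 0.037) or library 1 of Crebl2 siRNA in ethanol (−0.43, edgeR adjusted p = 0.02). Over all alternatives that p ran from 0.02 to 0.38.

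In the M-band and the giant proteins, Myom2 and Myom3 were lower with the siRNA in both treatments and with rapamycin under Luc siRNA, and titin was lower with rapamycin under both siRNAs. Myom2 encodes M-protein, which links thick filaments in fast fibres. In rapamycin, Myom2 stood at 18.3, 16.2 and 19.6 CPM under Crebl2 siRNA and at 60.0, 50.5 and 56.2 CPM under Luc siRNA. In ethanol, Myom2 stood at 34.7, 34.5 and 41.5 CPM under Crebl2 siRNA and at 161, 165 and 156 CPM under Luc siRNA. The 4 groups were separate. The siRNA lowered Myom2 3.08-fold in rapamycin (−1.62, SE 0.09, edgeR adjusted p = 2.4e-09) and 4.35-fold in ethanol (−2.12, SE 0.08, edgeR adjusted p = 1.5e-10). Rapamycin lowered it 2.05-fold under Crebl2 siRNA (−1.03, SE 0.09, edgeR adjusted p = 9.5e-08) and 2.90-fold under Luc siRNA (−1.53, SE 0.08, edgeR adjusted p = 5.8e-10). Myom3, another myomesin, had the larger siRNA change of the pair. In rapamycin, Myom3 stood at 0.478, 0.667 and 0.547 CPM under Crebl2 siRNA and at 3.74, 2.90 and 3.18 CPM under Luc siRNA. In ethanol, Myom3 stood at 0.841, 0.630 and 0.863 CPM under Crebl2 siRNA and at 6.32, 6.02 and 6.27 CPM under Luc siRNA. All libraries under Crebl2 siRNA were below 1 CPM and all under Luc siRNA above it. It was 5.78-fold lower with the siRNA in rapamycin (−2.53, SE 0.17, edgeR adjusted p = 3.4e-08) and 7.87-fold lower in ethanol (−2.98, SE 0.15, edgeR adjusted p = 2.3e-09). The rapamycin change was −0.92 under Luc siRNA (SE 0.13, edgeR adjusted p = 2.9e-05). With Crebl2 siRNA it was −0.48 and not called (SE 0.20, edgeR adjusted p = 0.084), but was called without library 2 of Crebl2 siRNA in ethanol (−0.60, edgeR adjusted p = 0.046), with a range of 0.046 to 0.32 over all alternatives.

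Titin, the elastic filament between Z-disc and M-band, separated by rapamycin only. In rapamycin, Ttn stood at 3.69, 4.09 and 2.98 CPM under Crebl2 siRNA and at 3.52, 1.94 and 2.24 CPM under Luc siRNA. In ethanol, Ttn stood at 12.4, 9.15 and 9.92 CPM under Crebl2 siRNA and at 9.27, 10.6 and 10.0 CPM under Luc siRNA. The siRNA groups overlapped within each treatment. Rapamycin lowered Ttn 2.92-fold under Crebl2 siRNA (−1.55, SE 0.18, edgeR adjusted p = 3e-06) and 3.89-fold under Luc siRNA (−1.96, SE 0.18, edgeR adjusted p = 4.4e-07). The siRNA change was not called in ethanol (0.07, SE 0.16, edgeR adjusted p = 0.76) or in rapamycin (0.49, SE 0.20, edgeR adjusted p = 0.069). The rapamycin value became a rise without library 3 of Crebl2 siRNA in rapamycin (0.64, edgeR adjusted p = 0.034), without library 1 of Luc siRNA in rapamycin (0.82, edgeR adjusted p = 0.0029), without a count filter (0.52, edgeR adjusted p = 0.0024) and with DESeq2 (0.52, adjusted p = 0.022). Over all alternatives that p ran from 0.0024 to 0.21. Of the 3054 reads of Ttn, 2924 came from the short transcript Ttn-202 of 16891 bases, whose 6520 unique bases all lie in its last exon, 6284 of them coding. The long Ttn-203 of 106824 bases has 2422 unique bases and had 39 reads. The values therefore describe a shortened titin transcript, and the full-length RNA was not measured well enough to compare. Nebulin (Neb), the ruler of the thin filament, was 10.1% countable and ranged from 0.159 to 0.304 CPM in cells with Crebl2 siRNA and rapamycin, from 0.216 to 0.459 CPM in cells with Crebl2 siRNA and ethanol, from 0.756 to 0.912 CPM in cells with Luc siRNA and rapamycin and from 1.45 to 1.78 CPM in cells with Luc siRNA and ethanol. It was lower with the siRNA in rapamycin (−1.94, SE 0.30, edgeR adjusted p = 0.00016) and in ethanol (−2.23, SE 0.25, edgeR adjusted p = 5.4e-06), and was also lower in rapamycin under Luc siRNA (−0.95, SE 0.22, edgeR adjusted p = 0.0023).

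Among troponins and light chains, each agent on its own lowered Tnnc1 and Myl6b, and rapamycin gave no call for either under Crebl2 siRNA. Tnnc1 encodes the calcium-binding troponin C of slow and cardiac muscle. In rapamycin, Tnnc1 stood at 20.4, 22.4 and 22.6 CPM under Crebl2 siRNA and at 47.7, 39.1 and 38.9 CPM under Luc siRNA. In ethanol, Tnnc1 stood at 22.2, 18.8 and 21.3 CPM under Crebl2 siRNA and at 91.0, 79.3 and 63.9 CPM under Luc siRNA. Both groups under Crebl2 siRNA lay near 21 CPM and overlapped, below Luc siRNA in rapamycin, which lay below Luc siRNA in ethanol. The siRNA lowered it 1.92-fold in rapamycin (−0.94, SE 0.11, edgeR adjusted p = 1.5e-05) and 3.76-fold in ethanol (−1.91, SE 0.11, edgeR adjusted p = 8.6e-09). Rapamycin lowered it 1.87-fold under Luc siRNA (−0.90, SE 0.11, edgeR adjusted p = 6.9e-06), and the change under Crebl2 siRNA was not called (0.07, SE 0.12, edgeR adjusted p = 0.67). Myl6b, an essential light chain of myosin, differed less. In rapamycin, Myl6b stood at 22.3, 24.6 and 25.7 CPM under Crebl2 siRNA and at 22.9, 22.7 and 22.3 CPM under Luc siRNA. In ethanol, Myl6b stood at 22.4, 20.9 and 24.8 CPM under Crebl2 siRNA and at 34.3, 29.8 and 31.0 CPM under Luc siRNA. The Luc siRNA in ethanol lay above the other 3 groups, which overlapped. Myl6b was 1.40-fold lower with the siRNA in ethanol (−0.48, SE 0.07, edgeR adjusted p = 0.00011) and 1.40-fold lower in rapamycin under Luc siRNA (−0.49, SE 0.07, edgeR adjusted p = 7.2e-05). Its siRNA change in rapamycin was not called (0.10, SE 0.08, edgeR adjusted p = 0.36), nor was its rapamycin change under Crebl2 siRNA (0.09, SE 0.08, edgeR adjusted p = 0.35).

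The fast light chains were close to the limit of the counts. Myl1, the essential one, had 3 to 9 reads per library in cells with Crebl2 siRNA and rapamycin, 9 to 17 in cells with Crebl2 siRNA and ethanol, 28 to 36 in cells with Luc siRNA and rapamycin and 62 to 89 in cells with Luc siRNA and ethanol. The siRNA comparisons did not overlap, at −2.11 in rapamycin (SE 0.33, edgeR adjusted p = 0.00014) and −2.53 in ethanol (SE 0.26, edgeR adjusted p = 2e-06). Rapamycin lowered Myl1 under Luc siRNA (−1.25, SE 0.22, edgeR adjusted p = 0.00029). With Crebl2 siRNA its value was −0.83 (SE 0.38, edgeR adjusted p = 0.089), which was called without library 1 of Crebl2 siRNA in ethanol (−1.06, edgeR adjusted p = 0.04; 0.04 to 0.36 over all alternatives). Mylpf, the fast regulatory light chain, had 72 reads in all. It had 1 to 2 reads per library in cells with Crebl2 siRNA and rapamycin, 1 to 7 in cells with Crebl2 siRNA and ethanol, 2 to 6 in cells with Luc siRNA and rapamycin and 12 to 16 in cells with Luc siRNA and ethanol. It was lower in rapamycin under Luc siRNA (−1.84, SE 0.49, edgeR adjusted p = 0.0072) and with the siRNA in ethanol (−1.53, SE 0.47, edgeR adjusted p = 0.017). That siRNA call was lost with DESeq2 (−1.55, adjusted p = 0.079) and without library 1 of Crebl2 siRNA in ethanol (−1.04, edgeR adjusted p = 0.079), with a range of 0.009 to 0.079 over all alternatives. Without that library the rapamycin change under Crebl2 siRNA was called (−2.09, edgeR adjusted p = 0.02; 0.02 to 0.29 over all alternatives), against −1.60 with it (edgeR adjusted p = 0.1).

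The tropomyosins, which wind around the thin filament and are made in muscle and non-muscle forms, differed from most of the others: Tpm1 and Tpm2 were higher where both agents were present. In rapamycin, Tpm2 stood at 19.9, 21.8 and 23.1 CPM under Crebl2 siRNA and at 12.8, 15.4 and 13.4 CPM under Luc siRNA. In ethanol, Tpm2 stood at 12.6, 10.4 and 13.0 CPM under Crebl2 siRNA and at 14.6, 12.1 and 12.8 CPM under Luc siRNA. The Crebl2 siRNA in rapamycin lay above the other 3 groups, which overlapped. Tpm2 was 1.55-fold higher with the siRNA in rapamycin (0.64, SE 0.10, edgeR adjusted p = 0.00017) and 1.79-fold higher in rapamycin under Crebl2 siRNA (0.84, SE 0.10, edgeR adjusted p = 5.5e-06). Neither the siRNA in ethanol (−0.13, SE 0.10, edgeR adjusted p = 0.37) nor rapamycin under Luc siRNA (0.08, SE 0.10, edgeR adjusted p = 0.58) gave a call. Nearly all reads of Tpm2, 6743 of 6770, came from Tpm2-202 and rest on 76 unique coding bases of 1 exon. In rapamycin, Tpm1 stood at 18.8, 16.9 and 17.4 CPM under Crebl2 siRNA and at 15.5, 12.8 and 13.1 CPM under Luc siRNA. In ethanol, Tpm1 stood at 9.97, 13.5 and 12.0 CPM under Crebl2 siRNA and at 11.0, 13.0 and 12.9 CPM under Luc siRNA. Here too Crebl2 siRNA in rapamycin lay highest and the other groups overlapped. Tpm1 was 1.29-fold higher with the siRNA in rapamycin (0.37, SE 0.11, edgeR adjusted p = 0.017) and 1.50-fold higher in rapamycin under Crebl2 siRNA (0.59, SE 0.11, edgeR adjusted p = 0.00036). The siRNA in ethanol (−0.06, SE 0.11, edgeR adjusted p = 0.73) and rapamycin under Luc siRNA (0.16, SE 0.11, edgeR adjusted p = 0.26) gave no call. Tpm1 was 39.4% countable, and 3 of its 16 listed transcripts had reads. Of its 6205 reads, 3911 came from Tpm1-201 and 2281 from Tpm1-209. Their unique bases lie almost all in their last exons, outside the coding sequence. The values of Tpm1 therefore describe those transcripts, and its others were not measured well enough to compare. Tpm3 ranged from 0.832 to 1.41 CPM over the 12 libraries and was called in none of the comparisons.

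Transcripts of Tpm1 could be told apart by their last exons. Tpm1-201 (3911 reads) had group means of 10.5 CPM in cells with Crebl2 siRNA and rapamycin, 7.86 CPM in cells with Crebl2 siRNA and ethanol, 8.14 CPM in cells with Luc siRNA and rapamycin and 8.55 CPM in cells with Luc siRNA and ethanol. Tpm1-209 (2281 reads) had 7.41, 3.87, 5.42 and 3.83 CPM in these groups. Rapamycin under Luc siRNA raised Tpm1-209 (0.50, SE 0.15, edgeR adjusted p = 0.014 over 14494 tested transcripts) and gave no call for Tpm1-201 (−0.07, SE 0.12, edgeR adjusted p = 0.68). With Crebl2 siRNA both were higher in rapamycin, Tpm1-209 by 0.94 (SE 0.15, edgeR adjusted p = 7.1e-05) and Tpm1-201 by 0.42 (SE 0.12, edgeR adjusted p = 0.0078). The difference between the transcripts was not tested. In rapamycin, both were higher under Crebl2 siRNA, by 0.45 for Tpm1-209 (SE 0.14, edgeR adjusted p = 0.023) and 0.37 for Tpm1-201 (SE 0.12, edgeR adjusted p = 0.024). The short titin transcript Ttn-202 was higher with the siRNA in rapamycin when tested on its own (0.58, SE 0.20, edgeR adjusted p = 0.039). Under Crebl2 siRNA, rapamycin lowered Neb-201 (−1.30, SE 0.49, edgeR adjusted p = 0.045) and gave no call for Neb-202 (0.15, SE 0.49, edgeR adjusted p = 0.86). There Myl1-203 was also lower (−1.52, SE 0.52, edgeR adjusted p = 0.028) and Myl1-201 not called (−0.15, SE 0.60, edgeR adjusted p = 0.87). These transcripts of Neb and Myl1 had few reads, and their differences were not tested.

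Of the Z-disc genes among the 44, the one with the most CPM after desmin was Xirp1, which encodes the actin-binding repeat protein Xin. In rapamycin, Xirp1 stood at 12.1, 15.8 and 13.5 CPM under Crebl2 siRNA and at 13.1, 10.8 and 12.9 CPM under Luc siRNA. In ethanol, Xirp1 stood at 37.0, 30.6 and 30.7 CPM under Crebl2 siRNA and at 26.5, 27.9 and 24.1 CPM under Luc siRNA. The rapamycin groups lay below both ethanol groups, and the siRNA groups overlapped in rapamycin. Rapamycin lowered Xirp1 2.38-fold under Crebl2 siRNA (−1.25, SE 0.11, edgeR adjusted p = 1.1e-07) and 2.14-fold under Luc siRNA (−1.10, SE 0.11, edgeR adjusted p = 6.8e-07). With the siRNA in ethanol Xirp1 was 1.25-fold higher (0.32, SE 0.10, edgeR adjusted p = 0.019). That rise was no longer called without library 1 of Crebl2 siRNA (0.23, edgeR adjusted p = 0.11) or library 3 of Luc siRNA in ethanol (0.27, edgeR adjusted p = 0.075), with a range of 0.001 to 0.11 over all alternatives. The siRNA change in rapamycin was not called (0.17, SE 0.11, edgeR adjusted p = 0.27). Ldb3, a PDZ-LIM protein of the Z-disc, ranged from 1.78 to 2.03 CPM in cells with Crebl2 siRNA and rapamycin, from 1.86 to 1.92 CPM in cells with Crebl2 siRNA and ethanol, from 1.64 to 1.96 CPM in cells with Luc siRNA and rapamycin and from 2.39 to 3.03 CPM in cells with Luc siRNA and ethanol. It was lower with the siRNA in ethanol (−0.51, SE 0.13, edgeR adjusted p = 0.0063) and in rapamycin under Luc siRNA (−0.58, SE 0.13, edgeR adjusted p = 0.0023), with no call where the other agent was already present. Ldb3 was 14.0% countable, and 930 of its 938 reads came from the short Ldb3-203, whose 610 unique bases all lie in its last exon. The values of Ldb3 therefore describe that transcript, and the longer ones were not measured well enough to compare. Des was between 1375 and 1677 CPM in all 12 libraries and the groups overlapped. Its changes lay between −0.07 and 0.07 and were not called. Without library 2 of Luc siRNA in rapamycin, Des was lower in rapamycin under Luc siRNA (−0.17, edgeR adjusted p = 0.047; 0.047 to 0.89 over all alternatives).

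Myoz2, calsarcin-1 of the Z-disc, had 3 to 4 reads per library in cells with Crebl2 siRNA and rapamycin, 3 to 11 in cells with Crebl2 siRNA and ethanol, 12 to 21 in cells with Luc siRNA and rapamycin and 67 to 95 in cells with Luc siRNA and ethanol. The siRNA changes were −2.30 in rapamycin (SE 0.40, edgeR adjusted p = 0.0004) and −3.34 in ethanol (SE 0.28, edgeR adjusted p = 2.7e-07), with no overlap of the libraries. Rapamycin lowered it under Luc siRNA (−2.03, SE 0.24, edgeR adjusted p = 4.9e-06). With Crebl2 siRNA the value was not called (−0.99, SE 0.48, edgeR adjusted p = 0.11), but was without library 2 of Crebl2 siRNA in ethanol (−1.28, edgeR adjusted p = 0.043; 0.043 to 0.45 over all alternatives). Its relative Myoz1 had 87 reads in all and was called in no comparison. Muscle creatine kinase (Ckm), which buffers ATP at the M-band, had 0 to 4 reads per library in cells with Crebl2 siRNA and rapamycin, 6 to 9 in cells with Crebl2 siRNA and ethanol, 7 to 16 in cells with Luc siRNA and rapamycin and 49 to 75 in cells with Luc siRNA and ethanol. All 238 reads of Ckm came from Ckm-203, and 1257 of the 1507 unique bases of that transcript lie in its last exon. Ckm-201, the other listed transcript, has 0 unique bases and was not measured. Ckm was called lower with the siRNA in rapamycin (−2.21, SE 0.62, edgeR adjusted p = 0.012) and in ethanol (−2.87, SE 0.35, edgeR adjusted p = 1.3e-05). It was also lower in rapamycin under Crebl2 siRNA (−1.76, SE 0.66, edgeR adjusted p = 0.039) and under Luc siRNA (−2.41, SE 0.33, edgeR adjusted p = 2.8e-05). The siRNA call in rapamycin was lost without library 3 of Luc siRNA in rapamycin (−1.71, edgeR adjusted p = 0.068; 0.00054 to 0.068 over all alternatives). The rapamycin call under Crebl2 siRNA was lost without any of the 3 libraries of Crebl2 siRNA in ethanol (edgeR adjusted p = 0.056 to 0.086) and without library 1 or 2 of Crebl2 siRNA in rapamycin (0.1 and 0.14), with a range of 0.013 to 0.14 over all alternatives. Without library 3 of Crebl2 siRNA in rapamycin these changes were larger, −3.15 for the siRNA (edgeR adjusted p = 0.0068) and −2.69 for rapamycin (edgeR adjusted p = 0.017).

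Of the genes for fusion and adhesion, myomaker (Mymk), the membrane protein that myoblasts need to fuse, was lower with either agent, and lowest with both. In rapamycin, Mymk stood at 0.876, 0.899 and 1.03 CPM under Crebl2 siRNA and at 4.24, 4.16 and 4.18 CPM under Luc siRNA. In ethanol, Mymk stood at 2.91, 2.34 and 3.36 CPM under Crebl2 siRNA and at 16.2, 15.6 and 12.2 CPM under Luc siRNA. The 4 groups were separate. The siRNA lowered Mymk 4.47-fold in rapamycin (−2.16, SE 0.17, edgeR adjusted p = 1.6e-07) and 5.09-fold in ethanol (−2.35, SE 0.13, edgeR adjusted p = 5.8e-09). Rapamycin lowered it 3.08-fold under Crebl2 siRNA (−1.62, SE 0.17, edgeR adjusted p = 1.5e-06) and 3.50-fold under Luc siRNA (−1.81, SE 0.13, edgeR adjusted p = 2.2e-08). Its partner in fusion, myomerger (Mymx), is not among the 44 genes and was looked at after its values had been seen. Mymx was 42.6% countable and stood at 0.186, 0.377 and 0.274 CPM under Crebl2 siRNA and at 2.69, 2.07 and 2.30 CPM under Luc siRNA in rapamycin. In ethanol, Mymx stood at 0.612, 0.630 and 0.767 CPM under Crebl2 siRNA and at 5.58, 6.16 and 4.73 CPM under Luc siRNA. The siRNA changes were −3.07 in rapamycin (SE 0.23, edgeR adjusted p = 1e-07) and −3.02 in ethanol (SE 0.18, edgeR adjusted p = 8.5e-09). Cdh15, the cadherin by which myoblasts adhere to one another, did not follow the siRNA down. In rapamycin, Cdh15 stood at 628, 667 and 669.6 CPM under Crebl2 siRNA and at 486, 523 and 468 CPM under Luc siRNA. In ethanol, Cdh15 stood at 862, 792 and 925 CPM under Crebl2 siRNA and at 896, 849.9 and 832 CPM under Luc siRNA. The rapamycin groups lay below the ethanol groups, and in ethanol the siRNA groups overlapped. Rapamycin lowered Cdh15 1.31-fold under Crebl2 siRNA (−0.39, SE 0.06, edgeR adjusted p = 4.5e-05) and 1.74-fold under Luc siRNA (−0.80, SE 0.06, edgeR adjusted p = 3e-08). It was 1.33-fold higher with the siRNA in rapamycin (0.41, SE 0.06, edgeR adjusted p = 6.6e-05) and not called in ethanol (0.00, SE 0.06, edgeR adjusted p = 0.99).

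Whether rapamycin acted differently with each siRNA was tested by the interaction, which takes the log2 change of rapamycin under Luc siRNA from that under Crebl2 siRNA. Of the 23 genes, 5 had a positive value at an adjusted p under 0.05 and 0 a negative one, where 0.611% of all tested genes were called positive and 0.589% negative. The median over the 23 was 0.42, against −0.03 over all tested genes. It holds Myl1, Mylpf, Neb, Myoz2 and Ckm, which entered the test through Luc siRNA groups in which they were high. That median is therefore no support for a shared direction. All 5 genes with a called interaction had a mean of at least 1 CPM, where 0.817% of all genes were called positive and 0.796% negative. Tnnc1 (0.97, SE 0.16, edgeR adjusted p = 0.0066) and Myl6b (0.58, SE 0.11, edgeR adjusted p = 0.013) fell in rapamycin under Luc siRNA and showed no call under Crebl2 siRNA. Tpm2 rose in rapamycin under Crebl2 siRNA and gave no call under Luc siRNA (0.76, SE 0.14, edgeR adjusted p = 0.016). Cdh15 (0.41, SE 0.08, edgeR adjusted p = 0.024) and Myom2 (0.50, SE 0.12, edgeR adjusted p = 0.049) fell less under Crebl2 siRNA than under Luc siRNA. The call of Myom2 was lost on leaving out any 1 of 8 of the 12 libraries, namely libraries 1 and 3 of Crebl2 siRNA in rapamycin, 1 and 2 of Crebl2 siRNA in ethanol, 3 of Luc siRNA in rapamycin and 1, 2 and 3 of Luc siRNA in ethanol (values of 0.45 to 0.56, edgeR adjusted p = 0.056 to 0.12). The call of Cdh15 was lost without library 1 of Crebl2 siRNA in ethanol or library 1 or 2 of Luc siRNA in ethanol (0.38 to 0.42, edgeR adjusted p = 0.053 to 0.056). Without any 1 of these last 3 libraries the count of positive calls was 3. Over all alternatives the p ran from 8.7e-08 to 0.12 for Myom2 and from 3e-07 to 0.076 for Cdh15. Klhl40 (−0.13, edgeR adjusted p = 0.92), Mymk (0.19, edgeR adjusted p = 0.78) and Xirp1 (−0.15, edgeR adjusted p = 0.71) were not called, and a missed threshold does not show equal changes. Lmod3 missed the threshold (0.68, SE 0.19, edgeR adjusted p = 0.088) and passed it with DESeq2 (0.71, adjusted p = 0.0099), without a count filter (0.74, edgeR adjusted p = 0.0005), and without library 2 of Crebl2 siRNA in rapamycin (0.84) or library 3 of Crebl2 siRNA in ethanol (0.82). For Lmod3 that p ran from 0.0005 to 0.19. Tpm1 (0.42, SE 0.15, edgeR adjusted p = 0.22) passed it without a count filter (0.48, edgeR adjusted p = 0.02; 0.02 to 0.39 over all alternatives).

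**Figure D5:**
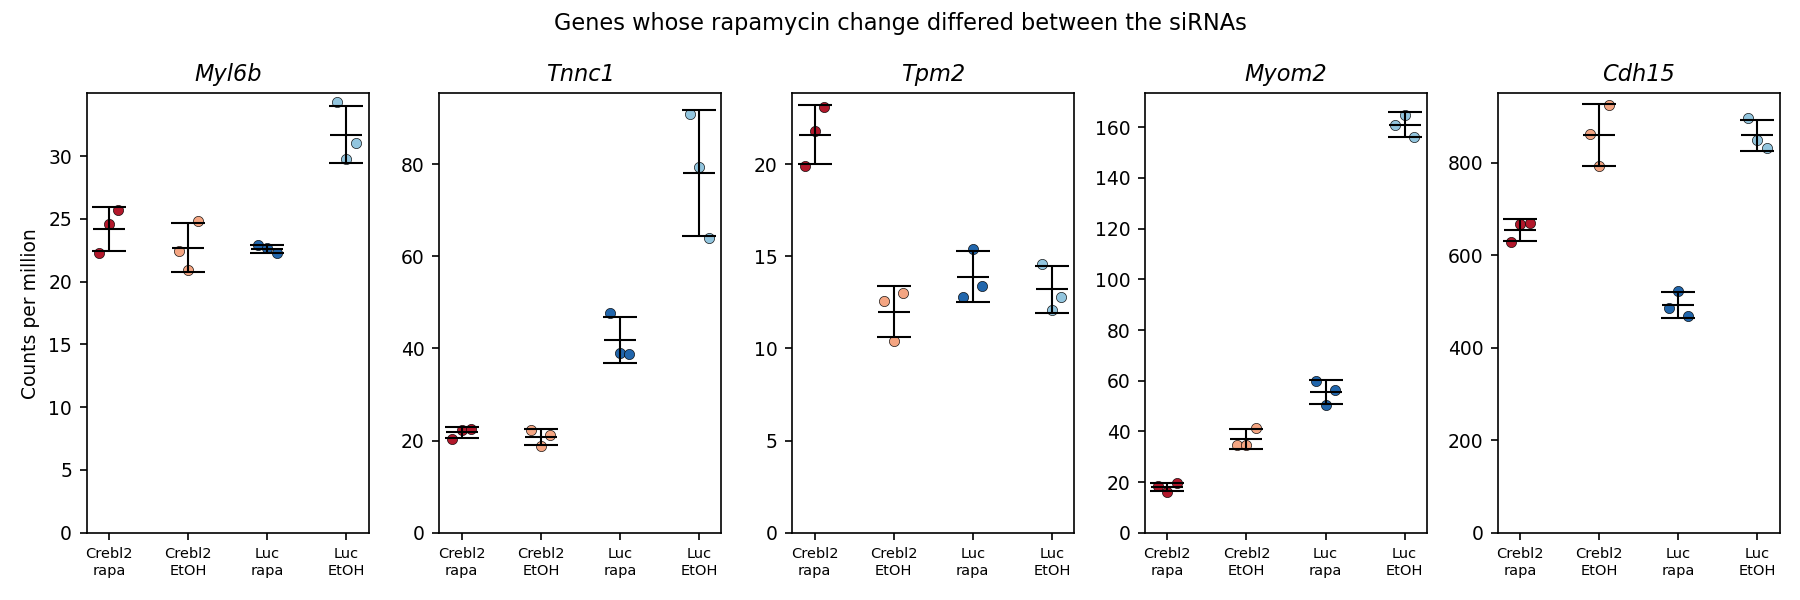
CPM (y axis, from 0) of the 5 genes with a called interaction, with 1 point per library in each of the 4 groups and lines for the mean and 1 SD either way (n = 3). Tnnc1 and Myl6b stand out in cells with Luc siRNA and ethanol, Tpm2 in cells with Crebl2 siRNA and rapamycin, and Cdh15 is lowest in cells with Luc siRNA and rapamycin.

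The 21 genes that were not tested held few reads. No read fell on Myh2, Myh4, Tnnt1, Mybpc1 or Mybph, all with a countable share below 10%, and the other 16 had 1 to 85 reads over the 12 libraries. Their reads summed to 62 in cells with Crebl2 siRNA and rapamycin, 70 in cells with Crebl2 siRNA and ethanol, 96 in cells with Luc siRNA and rapamycin and 160 in cells with Luc siRNA and ethanol. Cardiac troponin T (Tnnt2), 6.18% countable, had more reads under Crebl2 siRNA, with 7, 9 and 6 reads under Crebl2 siRNA and 0, 2 and 3 reads under Luc siRNA in rapamycin. In ethanol it had 7, 5 and 8 reads under Crebl2 siRNA and 0, 2 and 1 reads under Luc siRNA, so that the siRNA groups were separate in both treatments. Without a count filter, Tnnt2 was called higher with the siRNA in rapamycin (2.18, SE 0.70, edgeR adjusted p = 0.014) and in ethanol (2.62, SE 0.79, edgeR adjusted p = 0.0063). Telethonin (Tcap), a titin cap at the Z-disc, had 8 reads in cells with Crebl2 siRNA and rapamycin, 6 in cells with Crebl2 siRNA and ethanol, 42 in cells with Luc siRNA and rapamycin (23 of them in 1 library) and 29 in cells with Luc siRNA and ethanol. In the same fit without a filter, Tcap was lower with the siRNA in rapamycin (−2.22, SE 0.53, edgeR adjusted p = 0.00032) and in ethanol (−2.16, SE 0.60, edgeR adjusted p = 0.0023). The embryonic light chain Myl4 had 0 reads in all 6 libraries under Crebl2 siRNA, 3 in cells with Luc siRNA and rapamycin and 22 in cells with Luc siRNA and ethanol. Without a filter, Myl4 was called lower with the siRNA in ethanol and with rapamycin under Luc siRNA (edgeR adjusted p = 0.0001 and 0.012). Fast troponin I (Tnni2) had 10 reads in cells with Crebl2 siRNA and rapamycin, 14 in cells with Crebl2 siRNA and ethanol, 8 in cells with Luc siRNA and rapamycin and 38 in cells with Luc siRNA and ethanol. It was called lower there with the siRNA in ethanol (−1.37, SE 0.50, edgeR adjusted p = 0.033) and with rapamycin under Luc siRNA (−2.14, SE 0.56, edgeR adjusted p = 0.00093). The same fit called Myh8 lower with the siRNA in ethanol and with rapamycin under Luc siRNA (edgeR adjusted p = 0.043 and 0.0018). Smyd1, a factor of myosin assembly, had 0 reads in cells with Crebl2 siRNA and rapamycin and 11 in cells with Crebl2 siRNA and ethanol. It was called lower with rapamycin under Crebl2 siRNA (edgeR adjusted p = 0.0054). Of the 39 genes with reads, that fit called 18 with the siRNA in rapamycin and 21 in ethanol. It called 12 with rapamycin under Crebl2 siRNA and 21 under Luc siRNA. The share of all genes called in that fit was not counted. The untested genes are named because they were called, some against groups with 0 reads, so their calls are no support for a shared direction.

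Other genes of the same machinery were called in both directions. Of 39 other sarcomere and costamere genes, 29 were tested. With the siRNA, 6 were lower (20.7%) and 7 higher (24.1%) in rapamycin, where 16.8% and 16.3% of all tested genes were. In ethanol 14 were lower (48.3%) and 4 higher (13.8%), where 17.0% and 21.4% of all tested genes were. In rapamycin, 10 were lower (34.5%) and 9 higher (31.0%) under Crebl2 siRNA, where 25.6% and 19.7% of all tested genes were. Under Luc siRNA 12 were lower (41.4%) and 7 higher (24.1%), where 21.6% and 19.5% of all tested genes were. The interaction was positive for 7 (24.1%, against 0.611% of all tested genes) and negative for 0. Of 23 other fusion genes, 16 were tested. With the siRNA, 5 were lower (31.2%) and 5 higher (31.2%) in rapamycin, where 16.8% and 16.3% of all tested genes were. In ethanol 4 were lower (25.0%) and 3 higher (18.8%), where 17.0% and 21.4% of all tested genes were. Of 14 non-muscle relatives of sarcomere proteins, such as non-muscle myosin and alpha-actinins, 11 were tested. With the siRNA in rapamycin, 0 were lower and 8 higher (72.7%), where 16.8% and 16.3% of all tested genes were. With the siRNA in ethanol, 2 were lower (18.2%) and 6 higher (54.5%), where 17.0% and 21.4% of all tested genes were. In rapamycin, 0 of these relatives were lower and 7 higher (63.6%) under Crebl2 siRNA, where 25.6% and 19.7% of all tested genes were. Under Luc siRNA 1 was lower (9.09%) and 6 higher (54.5%), where 21.6% and 19.5% of all tested genes were. The 5 smooth muscle markers summed to 7292 to 7729.9 CPM in cells with Crebl2 siRNA and rapamycin, 3879 to 4210.4 CPM in cells with Crebl2 siRNA and ethanol, 4851 to 5006 CPM in cells with Luc siRNA and rapamycin and 3078 to 3383 CPM in cells with Luc siRNA and ethanol. Myh11 and Smtn, of that list, stayed below 1 CPM in every library. The 5 fibroblast markers summed to 8816 to 9039.9 CPM, 9648 to 10686 CPM, 9223 to 9389 CPM and 10871 to 11555 CPM in these 4 groups, with Thy1 below 1 CPM throughout. These sums moved with the siRNA and with rapamycin, and their part in the results was not tested.

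Promoter windows of 300 bases, from 250 before to 50 after the start site, were available from RefSeq (GRCm38.p6) for 35 of the 44 genes, 41 windows in all. The RefSeq start lay within 50 bases of the start of the gene model used for the counts for 22 windows, and 13 windows lay wholly inside that model. On either strand, CAGCTG, a form of the E-box CANNTG that myogenic factors bind, occurred in 15 of the 35 (42.9%), against 18.3% of 27025 genes. The broader CANNTG, which contains it, occurred in 30 of the 35 (85.7%) against 75.0%. The MEF2 box occurred in 7 (20.0%) against 3.70%, and the CArG box in 3 (8.57%) against 1.81%. TGACGTCA, the full CRE site bound by CREB proteins, occurred in 0 of the 35 against 2.03%, and its core TGACG, which every full site contains, in 7 (20.0%) against 23.0%. Of the 12 genes lower in both siRNA comparisons, 8 had a window and 6 of these held CAGCTG. Of the 11 other tested genes, 9 had a window and 4 held it. Among the 6 are Myl1, Myoz2 and Ckm, which entered the test through groups in which they were high. The RefSeq starts of Myl1 and Ckm also lay 348 and 6318 bases inside the gene model. The 2 shares are therefore no basis for a contrast, and their difference was not tested. A match is a run of letters and not a shown binding site, and no match says only that the letters are not in this window. The windows of 4 genes are shown because their changes differ. Klhl41 and Myoz2 were lower in both siRNA comparisons, Ttn was lower with rapamycin and not called with the siRNA, and Cdh15 was lower with rapamycin and not with the siRNA. Capitals mark CAGCTG and the MEF2 box.
Klhl41 (chr2:69669870-69670169, plus strand): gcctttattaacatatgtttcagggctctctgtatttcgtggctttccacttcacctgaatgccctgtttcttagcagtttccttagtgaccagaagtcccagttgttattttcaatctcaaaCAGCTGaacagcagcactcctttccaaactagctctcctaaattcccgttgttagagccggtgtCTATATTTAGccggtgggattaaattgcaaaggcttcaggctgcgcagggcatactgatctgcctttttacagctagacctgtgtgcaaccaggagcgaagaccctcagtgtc
Myoz2 (chr3:123034938-123035237, minus strand): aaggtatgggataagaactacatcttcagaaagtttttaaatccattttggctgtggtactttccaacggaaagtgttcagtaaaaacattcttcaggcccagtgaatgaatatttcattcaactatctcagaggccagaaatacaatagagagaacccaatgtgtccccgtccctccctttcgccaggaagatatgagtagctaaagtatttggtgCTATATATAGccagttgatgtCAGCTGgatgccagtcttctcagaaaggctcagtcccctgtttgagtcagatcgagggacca
Ttn (chr2:76982498-76982797, minus strand): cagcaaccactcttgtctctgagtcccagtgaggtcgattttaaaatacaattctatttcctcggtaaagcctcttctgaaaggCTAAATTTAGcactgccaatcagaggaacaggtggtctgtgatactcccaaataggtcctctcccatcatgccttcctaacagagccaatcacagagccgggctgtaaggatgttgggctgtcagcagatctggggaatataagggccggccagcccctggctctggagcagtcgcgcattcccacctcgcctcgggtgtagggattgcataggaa
Cdh15 (chr8:122848124-122848423, plus strand): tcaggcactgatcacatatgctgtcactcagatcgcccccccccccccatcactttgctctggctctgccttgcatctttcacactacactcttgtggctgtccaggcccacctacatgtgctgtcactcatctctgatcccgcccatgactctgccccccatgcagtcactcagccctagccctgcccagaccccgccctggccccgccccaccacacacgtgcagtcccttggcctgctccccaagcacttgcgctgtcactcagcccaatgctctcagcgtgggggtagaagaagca
Klhl41 holds CAGCTG with its first base at −127 and a MEF2 box at −63 from the start site. Myoz2 holds the MEF2 box at −33 and CAGCTG at −12. Ttn holds a MEF2 box at −166 and no CAGCTG, and Cdh15 holds neither. Positions count from the RefSeq start, which for Klhl41 and Ttn is that of the gene model, for Myoz2 lies 28 bases inside it and for Cdh15 408 bases inside it, so that the Cdh15 window does not cover the start of the model.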

How the data were processed

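RNA from C2C12 cells was sequenced in 12 libraries, 3 in each of 4 groups, from stranded total RNA libraries per the labels' protocols. Each deposited file held raw read counts of 58611 Ensembl transcripts. The submitters' processing notes list Trim Galore, TopHat and HTSeq with no version, and name mm9 as well as GRCm38 as builds. Not given in the sources used here are the annotation, the strand setting and the handling of shared reads, so reads of overlapping antisense genes cannot be told apart.

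Transcripts were matched by identifier to GENCODE M21 on GRCm38 (58264, or 99.41%; the other 347 held 0.038% of the reads) and summed per gene, although the test design had assumed counts per gene. Genes that passed filterByExpr by group, with 10 as the minimum count (13247 of 38481; about 0.268 CPM) were tested with TMM scaling and edgeR 4.0.16 (quasi-likelihood; R 4.3.3), using all 12 libraries in 1 fit of 4 group means. Calls took an adjusted p (Benjamini-Hochberg, all tested genes) under 0.05. Standard errors are the log2 fold change over the root of F. Transcripts were tested the same way (14494). The fit was tested on simulated data.

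The 44 genes and all lists were chosen with earlier results of these data known. Values in every library are given for tested genes of the 44 that were called in a pairwise comparison and had a group mean of at least 5 CPM. The uncalled Des and the others are given by range or count. Any other gene was named after its values were seen. Alternatives were RLE scaling, DESeq2 1.42.0, no filter, a count minimum of 50, a block for replicate number, only the libraries compared, each library left out in turn and, added after the data had been seen, a mean of at least 1 CPM.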

Additional observations from a re-analysis of the deposited data

Results flagged for a closer look

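For 5 genes the rapamycin change differed between the siRNAs by the interaction term of the fit, which compares the change under Crebl2 siRNA to that under Luc siRNA. The difference was 0.97 on the log2 scale for Tnnc1, 0.76 for Tpm2, 0.58 for Myl6b, 0.50 for Myom2 and 0.41 for Cdh15. Standard errors were 0.16 for Tnnc1, 0.14 for Tpm2, 0.11 for Myl6b, 0.12 for Myom2 and 0.08 for Cdh15. With 3 libraries in a group, single libraries were not screened as outliers.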

How the results depend on the processing

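Of 1471 values recomputed for the tested genes under the alternatives, 1432 kept their side of the threshold, 23 lost a call and 16 gained one. No called value changed sign, and 33 of the 1432 did so without a call in either fit. The number of genes called higher with the siRNA in ethanol was 2 without a count filter and 0 to 1 with a library left out. Without a count filter, 5 genes were called higher with the siRNA in rapamycin, where the added ones were Ttn and Tnnt2. Positive interactions numbered 3 to 6 with a library left out and 3 with the replicate block, under which Myom2 (0.51, edgeR adjusted p = 0.063) and Cdh15 (0.41, edgeR adjusted p = 0.076) lost their calls. The block left the other counts of calls as they were. Replicate numbers did not pair the libraries: deviations of same-numbered libraries correlated at −0.292 to 0.11, and 4 of 24 comparisons of a library with another group were highest at its own number. With a library left out, the siRNA lowered 11 to 13 genes in rapamycin and 14 to 17 in ethanol, and rapamycin lowered 8 to 11 under Crebl2 siRNA and 18 to 20 under Luc siRNA. A fit of only the libraries compared was not made for the interaction, which uses all 12. Low reads or countable shares limit Myl1, Mylpf, Neb, Myoz1, Myoz2, Ckm, Ttn, Tpm1, Tpm2, Ldb3 and the untested genes.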

Other observations

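Outside the 44 genes, Acta1 and Tmod1 of the thin filament showed the same sign of interaction as Tnnc1; these genes were chosen after their values had been seen. Acta1, skeletal alpha-actin, stood at 25.8, 26.6 and 31.9 CPM under Crebl2 siRNA and at 113, 93.4 and 102 CPM under Luc siRNA in rapamycin. Its rapamycin change was −0.36 under Crebl2 siRNA (SE 0.12, edgeR adjusted p = 0.021) and −1.48 under Luc siRNA (SE 0.11, edgeR adjusted p = 2.7e-08), with an interaction of 1.13 (edgeR adjusted p = 0.0025). Tmod1, which caps thin filaments at the pointed end, stood at 3.48, 3.45 and 4.08 CPM under Crebl2 siRNA and at 4.77, 4.59 and 4.20 CPM under Luc siRNA in rapamycin. In ethanol, Tmod1 stood at 4.84, 5.79 and 5.78 CPM under Crebl2 siRNA and at 15.2, 13.7 and 12.7 CPM under Luc siRNA. Its interaction was 1.04 (SE 0.16, edgeR adjusted p = 0.0037). Actn3, the alpha-actinin of fast fibres, was 1.02 higher on the log2 scale with the siRNA in rapamycin (SE 0.06, edgeR adjusted p = 1.4e-08) and not called in ethanol (0.03, SE 0.06, edgeR adjusted p = 0.75). In rapamycin, Actn3 stood at 150.2, 168 and 162 CPM under Crebl2 siRNA and at 83.4, 77.4 and 76.6 CPM under Luc siRNA. Rapamycin lowered it by −0.20 under Crebl2 siRNA (SE 0.06, edgeR adjusted p = 0.016) and by −1.18 under Luc siRNA (SE 0.06, edgeR adjusted p = 8.6e-10). Its interaction was 0.99 (SE 0.09, edgeR adjusted p = 0.00012).

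Lmod1, the smooth muscle leiomodin, went the other way from Lmod2 and Lmod3. It stood at 27.1, 21.1 and 27.8 CPM under Crebl2 siRNA and at 10.4, 11.2 and 11.1 CPM under Luc siRNA in rapamycin, a rise of 1.22 (SE 0.10, edgeR adjusted p = 1.7e-07). In ethanol, Lmod1 stood at 15.8, 14.0 and 14.5 CPM under Crebl2 siRNA and at 8.41, 8.11 and 8.11 CPM under Luc siRNA, a rise of 0.85 (SE 0.10, edgeR adjusted p = 7.7e-06).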
